A study of Mus musculus with 4 samples.

Results

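Macrophages display ligands and release enzymes that set how strongly a T cell answers antigen, and 10 such genes were followed here in mouse bone marrow-derived macrophages (BMDMs) that were wild type (WT) or knockout for OGT. They are Cd274, Pdcd1lg2, Cd80, Cd86, Icosl, Cd40, Vsir, Lgals9, Havcr2 and Il4i1. They were chosen by name, all 10 were found by gene symbol, and each corresponds to 1 of the 52550 Ensembl genes in the deposited table. OGT is the enzyme that attaches N-acetylglucosamine to serine and threonine residues of nuclear and cytoplasmic proteins. The 4 groups, each with 1 RNA-seq library, were the 2 genotypes sampled at 0 h and at 24 h. Cells of both genotypes had grown for 7 days with M-CSF at 20 ng/mL, which turns marrow cells into macrophages. The 24 h cells then received 20 ng/mL of IL-4, the cytokine of type 2 immunity, which drives macrophages into the alternatively activated (M2) state. The 0 h libraries carry the same IL-4 tag as the 24 h ones and were taken as cells before IL-4 from their time label. The mouse strain, the age of the animals, the Cre driver or deleted part of Ogt, and whether marrow was pooled are not stated in the labels.

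T cells need a second signal beside antigen. CD80 and CD86 give it by binding CD28, and both also bind the inhibitory receptor CTLA-4. ICOS ligand (Icosl) engages ICOS on activated T cells, and CD40 receives the signal of CD40 ligand that licenses an antigen-presenting cell. PD-L1 (Cd274) and PD-L2 (Pdcd1lg2) bind the inhibitory receptor PD-1. VISTA (Vsir) and galectin-9 (Lgals9) are further inhibitory ligands, TIM-3 (Havcr2) is a receptor to which galectin-9 has been reported to bind, and IL4I1 (Il4i1) is a secreted oxidase of aromatic amino acids that restrains T cell proliferation. PD-L2 and IL4I1 are textbook targets of IL-4 and its transcription factor STAT6, whereas PD-L1 and galectin-9 are known for their response to interferons.

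With 1 library per group no difference can be set against the spread between cultures, so there is no p-value, and each comparison describes these libraries only. A difference is given as the log2 ratio of FPKM + 1, where FPKM is a fragment count normalised for transcript length and sequencing depth. It is called 2-fold at a size of 1 or more, among genes with at least 1 FPKM in at least 1 of the libraries compared. The response to IL-4 means 24 h against 0 h. The labels name no 24 h culture without the cytokine, so IL-4 and time in culture cannot be told apart. All 4 comparisons between groups reuse the same 4 libraries and share them in pairs. In each library the most common product of FPKM and length, in a preset low range, was taken as 1 fragment. On a transcript of 1 kb, 1 fragment was thus estimated to give 0.0457 to 0.0500 FPKM in the 4 libraries. Fragment estimates below rest on this. Ogt itself had 27.4 FPKM before and 29.8 after IL-4 in WT, against 14.2 and 14.5 in the knockout. The knockout libraries thus kept 51.8% and 48.5% of the WT value, and how much OGT was lost is not shown by these values. All 10 macrophage markers examined, among them Adgre1, Csf1r and Cd68, were above 1 FPKM in every library, although several were lower after IL-4, as given below. T cell markers other than Cd28 were under 1 FPKM in all 4 libraries (7 of 7), and their summed level was 0.39 to 1.43 FPKM.

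The windows upstream of 4 of these genes are shown because they pair the strongest IL-4 responders with a neighbour and an interferon-type gene that behaved differently. Pdcd1lg2 and Il4i1 were both far higher after IL-4, Cd274 lies beside Pdcd1lg2 on chromosome 19 and stayed level, and Lgals9 was lower after IL-4. Each sequence is the 250 bases before the start of the gene in RefSeq (GRCm38.p6), 5′ to 3′ on the gene's own strand. Capitals mark a match to TTCNNNNGAA, the spacing preferred by STAT6, or to GAAANNGAAA, a pattern of interferon-response elements, on either strand.
Pdcd1lg2 (chr19:29410669-29410918, + strand): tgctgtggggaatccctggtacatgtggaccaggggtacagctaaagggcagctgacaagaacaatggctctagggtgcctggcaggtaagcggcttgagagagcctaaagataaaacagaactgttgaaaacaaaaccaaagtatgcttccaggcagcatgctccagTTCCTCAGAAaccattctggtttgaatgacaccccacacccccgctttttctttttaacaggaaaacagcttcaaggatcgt
Il4i1 (chr7:44836038-44836287, + strand): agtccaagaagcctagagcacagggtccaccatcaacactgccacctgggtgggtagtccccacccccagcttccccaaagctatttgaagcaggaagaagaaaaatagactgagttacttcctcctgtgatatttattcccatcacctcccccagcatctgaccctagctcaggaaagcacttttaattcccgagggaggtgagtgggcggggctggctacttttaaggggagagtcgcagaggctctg
Cd274 (chr19:29367188-29367437, + strand): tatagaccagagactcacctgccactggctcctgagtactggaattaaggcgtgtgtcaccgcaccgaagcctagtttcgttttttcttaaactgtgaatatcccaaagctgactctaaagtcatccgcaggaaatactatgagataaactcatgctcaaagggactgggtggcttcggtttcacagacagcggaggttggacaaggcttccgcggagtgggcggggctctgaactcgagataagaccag
Lgals9 (chr11:78984925-78985174, − strand): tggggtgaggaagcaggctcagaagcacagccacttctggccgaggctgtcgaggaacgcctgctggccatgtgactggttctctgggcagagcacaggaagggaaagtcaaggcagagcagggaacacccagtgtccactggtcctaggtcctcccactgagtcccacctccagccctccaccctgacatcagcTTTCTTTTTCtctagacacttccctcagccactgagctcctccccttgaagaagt

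Windows of 300 bases, 250 before and 50 after the start, were found for 8 of the 10 genes. Cd86 and Cd40 were not matched. The STAT6-type pattern was in 1 of the 8 windows, that of Pdcd1lg2, where TTCCTCAGAA began 82 bases before the start. It was in 6.94% of 32817 windows of that length over all genes. The interferon-type pattern was in the Lgals9 window alone among the 8 and in 3.43% of all windows. It occurred there on the opposite strand, at 55 bases before the start (TTTCTTTTTC) and again beginning at base 16 after it (TTTCTGTTTC). The kappa B pattern GGGNNTTTCC was in none of the 8 and in 1.63% of all windows. These are letter matches in short windows, and they say nothing of what binds there. The Il4i1 window belongs to the downstream of its annotated starts, since other Il4i1 transcripts in GENCODE M21 begin near the start of Nup62.

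Pdcd1lg2, which encodes PD-L2, went from near silence to a level close to that of PD-L1. It is ENSMUSG00000016498, on chromosome 19 from 29410919 to 29471161 on the + strand (GRCm38). WT cells had 0.11 FPKM before IL-4 and 42.4 after it, and knockout cells had 0.31 before and 33.5 after. Both libraries with IL-4 were high and both without it were near 0, in either genotype. The log2 difference with IL-4 was 5.29 in WT and 4.72 in the knockout. Only 0.051% of all tested genes in WT, and 0.12% in the knockout, had a difference of at least that size. Without the added 1 FPKM the ratio was 394 in WT and 108 in the knockout. Those ratios rest on an estimated 4.1 and 11 fragments at 0 h, so the gap between the genotypes in this ratio rests on few fragments. At 24 h, where the estimate is 1554 fragments in WT and 1174 in the knockout, the knockout stood at 79.2% of WT (log2 −0.33), and 19.1% of genes differed at least that much between genotypes.

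Cd274, which encodes PD-L1 (ENSMUSG00000016496, chromosome 19, 29367455 to 29388095, + strand), ends 22823 bases before Pdcd1lg2 begins. Its level before and after IL-4 was 47.5 and 52.3 FPKM in WT, and 52.8 and 46.6 FPKM in the knockout. The 4 values span a ratio of 1.13, the narrowest of the 10 genes. Neither IL-4 (log2 0.14 in WT and −0.18 in the knockout) nor genotype (0.15 at 0 h and −0.16 at 24 h) was accompanied by a difference near 2-fold. In WT 76.2% of tested genes, and in the knockout 69.3%, differed with IL-4 by at least as much as Cd274 did. An antisense gene, AC119228.1, has exons overlapping those of Cd274 in GENCODE M21 and has no row in the deposited table.

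The ratio between these neighbours therefore changed, since Cd274 stayed level while Pdcd1lg2 rose. FPKM is scaled to transcript length, so levels of these genes can be set side by side. Cd274 was 442 times Pdcd1lg2 in WT at 0 h and 169.7 times in the knockout, both against a Pdcd1lg2 value near 0. After IL-4 it was 1.23 times Pdcd1lg2 in WT and 1.39 times in the knockout. Pdcd1lg2 thus made up 0.23% of the PD-1 ligand transcripts in WT at 0 h and 0.59% in the knockout, and 44.8% and 41.9% after IL-4.

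Il4i1, the amino acid oxidase gene (ENSMUSG00000074141, chromosome 7, 44816387 to 44840809, + strand), followed the pattern of Pdcd1lg2. It was at 0.50 FPKM in WT and 0.26 in knockout cells at 0 h, and at 60.9 and 78.7 after IL-4. The log2 difference with IL-4 was 5.37 in WT and 5.98 in the knockout, and fewer than 0.05% of tested genes differed as much in either. After IL-4 the knockout was 1.29 times WT (log2 0.36), the opposite side from Pdcd1lg2. Exons of Il4i1 overlap those of 3 other genes, and the strandedness of the libraries is not given, so reads may have been shared between them. Of these, Atf5, which encodes a stress-responsive transcription factor, stood at 8.76 and 6.86 FPKM at 0 h and at 21.1 and 18.6 after IL-4, in WT and knockout. Tbc1d17 lay between 4.49 and 6.28 FPKM in all 4 libraries. Nup62, a nuclear pore gene, had 17.5 FPKM before and 9.07 after IL-4 in WT, and 5.33 before and 9.93 after in the knockout. Atf5 was thus past 2-fold higher after IL-4 in both genotypes (log2 1.18 in WT and 1.32 in the knockout). Nup62 was past 2-fold lower in the knockout at 0 h (−1.55), and its response differed between genotypes by 1.66. The part of shared reads in the Il4i1 values was not tested.

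**Figure D1:**
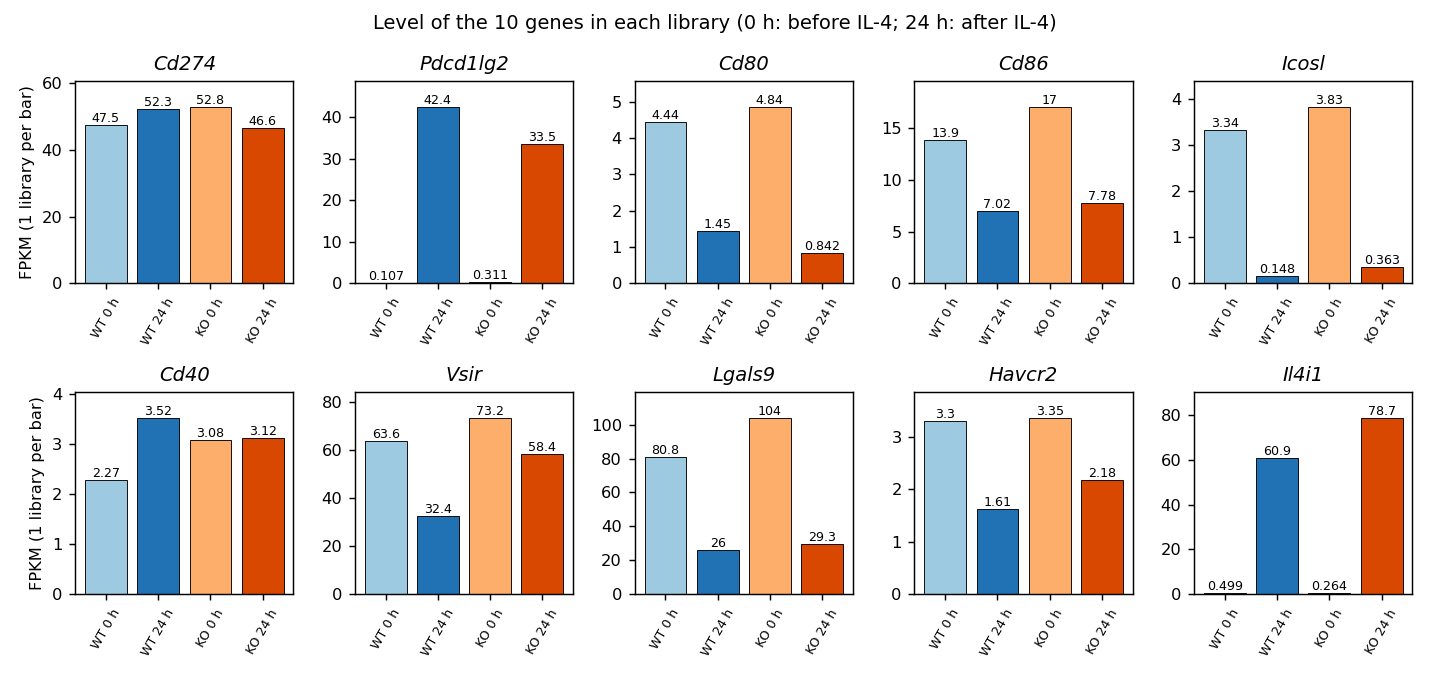
FPKM of each of the 10 genes (1 panel per gene, each axis from 0) in the 4 libraries, with 1 library per bar and no error bars; blue bars are WT and orange bars OGT knockout (KO). Pdcd1lg2 and Il4i1 are high after IL-4 alone, Cd274 is level, and Cd80, Cd86, Icosl, Vsir, Lgals9 and Havcr2 are lower after IL-4 in both genotypes.

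The ligands that stimulate T cells through CD28 and ICOS went the other way. Cd80 (ENSMUSG00000075122, chromosome 16, 38455561 to 38496335, + strand) was at 4.44 FPKM in WT and 4.84 in knockout cells at 0 h, and at 1.45 and 0.84 after IL-4. Both libraries with IL-4 were below both without it. The log2 difference was −1.15 in WT and −1.67 in the knockout, and without the added 1 FPKM the level was 3.06-fold lower in WT and 5.75-fold lower in the knockout. Cd86 (ENSMUSG00000022901, chromosome 16, 36603869 to 36666081, − strand) was at 13.9 and 17.0 FPKM at 0 h and at 7.02 and 7.78 after IL-4, in WT and knockout. Its log2 difference of −0.89 in WT was just inside 2-fold and that of −1.04 in the knockout just past it, so the genotypes hardly differ here. Cd86 was the more abundant of the pair in each library, at 3.13 to 9.24 times Cd80.

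Icosl had the largest proportional loss with IL-4. This gene (ENSMUSG00000000732, chromosome 10, 78069302 to 78083913, + strand) stood at 3.34 FPKM in WT and 3.83 in knockout cells at 0 h, and at 0.15 and 0.36 after IL-4. The 2 libraries with IL-4 were near 0 in both genotypes. The log2 differences were −1.92 and −1.82, and the plain ratios were 22.5-fold lower in WT and 10.5-fold lower in the knockout. An estimated 8.8 and 21 fragments lie behind the values after IL-4, which were both under 1 FPKM, so the genotypes were not compared there.

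Cd40 (ENSMUSG00000017652, chromosome 2, 165055627 to 165072948, + strand), the receptor of CD40 ligand, stayed low throughout. WT cells had 2.27 FPKM before IL-4 and 3.52 after it, and knockout cells 3.08 and 3.12. The log2 difference with IL-4 was 0.47 in WT and 0.01 in the knockout. The WT library at 0 h was the lowest of the 4 and the other three lay close together.

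Summed by receptor, the balance of transcripts shifted with IL-4 in both genotypes. These sums were chosen after the values were seen. Cd80 and Cd86 together came to 18.3 FPKM in WT and 21.9 in knockout cells at 0 h, and to 8.47 and 8.62 after IL-4. Cd274 and Pdcd1lg2 together came to 47.6 and 53.1 FPKM at 0 h, and to 94.6 and 80.1 after IL-4. PD-1 ligand transcripts were 2.59 times the CD28 ligand transcripts in WT and 2.43 times in the knockout at 0 h, against 11.2 and 9.29 times after IL-4. The excess of PD-1 ligand transcripts was there before IL-4 and was larger after it, in both genotypes. These are transcript levels in a bulk sample, in which fewer expressing cells and less RNA per cell cannot be told apart, and surface protein was not measured.

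**Figure D2:**
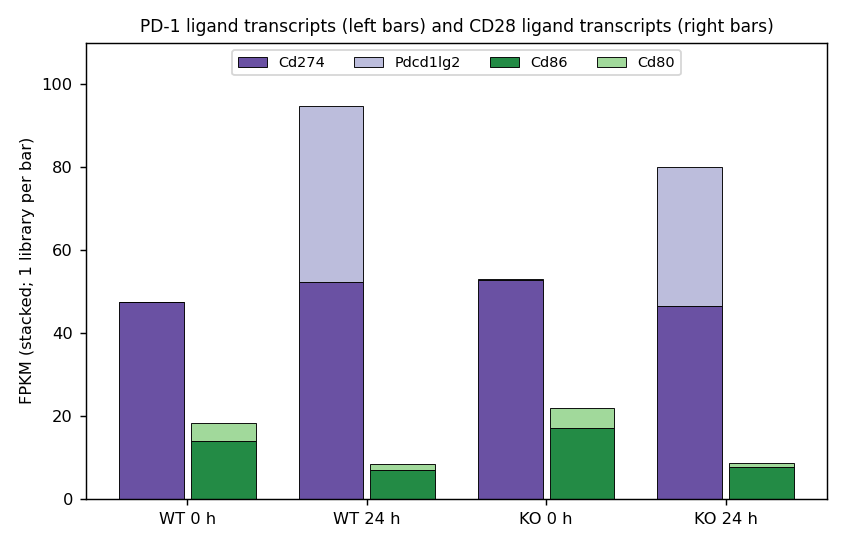
Stacked FPKM of the PD-1 ligand genes Cd274 and Pdcd1lg2 (left bar of each pair) and the CD28 ligand genes Cd86 and Cd80 (right bar) in the 4 libraries, 1 library per bar and no error bars. After IL-4 the left bars reach 94.6 (WT) and 80.1 FPKM (knockout) through Pdcd1lg2, while the right bars come to 8.47 and 8.62.

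Among the other inhibitory genes, Lgals9, which encodes galectin-9 (ENSMUSG00000001123, chromosome 11, 78962974 to 78984946, − strand), had the highest level of the 10 genes at 0 h. It stood at 80.8 FPKM in WT and 104 in knockout cells at 0 h, and at 26.0 and 29.3 after IL-4. The log2 difference was −1.60 in WT and −1.79 in the knockout, 3.11-fold and 3.55-fold lower in plain ratio. Havcr2, which encodes TIM-3 (ENSMUSG00000020399, chromosome 11, 46454935 to 46481255, + strand), was low, at 3.30 and 3.35 FPKM at 0 h and 1.61 and 2.18 after IL-4, in WT and knockout. Its log2 differences of −0.72 and −0.45 did not reach 2-fold. Without the added 1 FPKM the level was 2.05-fold lower in WT and 1.54-fold lower in the knockout. Lgals9 was 13.4 to 31.0 times Havcr2 in every library.

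Vsir, which encodes VISTA (ENSMUSG00000020101, chromosome 10, 60346851 to 60372684, + strand), had the largest genotype difference after IL-4 among the 9 genes kept at that time. WT cells had 63.6 FPKM before IL-4 and 32.4 after it, whereas knockout cells had 73.2 before and 58.4 after. The WT library after IL-4 stood apart below the other three. The log2 difference with IL-4 was −0.95 in WT and −0.32 in the knockout. Against WT, the knockout was at 0.20 at 0 h and 0.83 at 24 h, a plain ratio of 1.80, and 2.40% of tested genes differed between genotypes at 24 h by at least that much. The knockout response minus the WT response was 0.63, a size reached by 5.98% of genes. None of these differences reached 2-fold, and at least 3328 estimated fragments lie behind each value. Those fragment estimates are not counts, and variation between cultures was not measured.

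In WT, 2 of the 10 genes were at least 2-fold higher after IL-4 (Pdcd1lg2 and Il4i1), where 4.76% of 11687 tested genes were higher. Another 3 (Cd80, Icosl and Lgals9) were at least 2-fold lower, where 6.26% of tested genes were lower. In the knockout the same 2 genes were higher, against 5.16% of 11577 tested genes, and 4 were lower (those 3 and Cd86), against 5.99%. The lower calls of the genes with low levels depend on the pseudocount. With 5 FPKM added in place of 1, Cd80 (−0.55) and Icosl (−0.70) came under 2-fold in WT, as did Cd80 (−0.75), Icosl (−0.72) and Cd86 (−0.78) in the knockout, which left Lgals9. The median difference over the 10 genes was −0.81 in WT and −0.39 in the knockout, and over all tested genes it was 0.02 and 0.03. Setting both genotypes side by side, 9 of the 10 genes had the same sign in each, and Cd274 did not. One of the 9, Cd40, was at 0.01 in the knockout and changed sign when the libraries were rescaled. The knockout response minus the WT response was past 2-fold and positive in 1.27% of 12000 genes, and past 2-fold and negative in 1.16%. No gene of the 10 was past 2-fold in either direction. This too depends on the pseudocount, since with 0.1 FPKM added the response difference was −1.32 for Pdcd1lg2 and 1.09 for Il4i1.

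**Figure D3:**
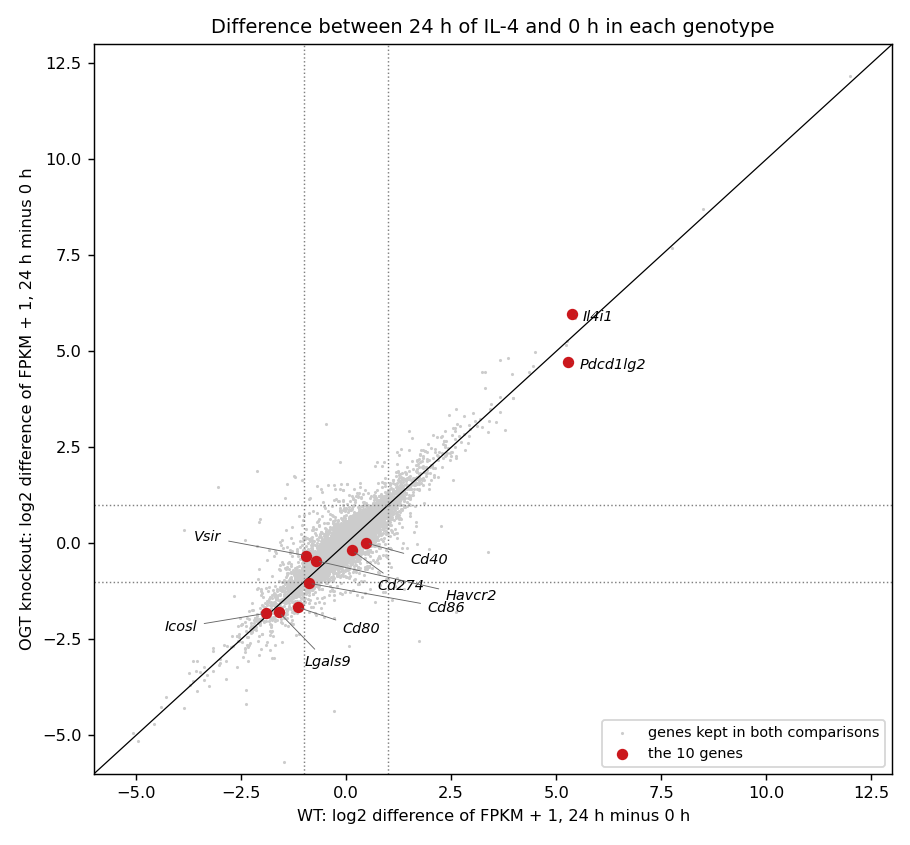
Log2 difference of FPKM + 1 between 24 h of IL-4 and 0 h in WT (x axis) and OGT knockout (y axis), with each grey point a gene kept in both comparisons and the 10 genes in red; the solid line marks equal responses and dotted lines 2-fold. Il4i1 (5.37 and 5.98) and Pdcd1lg2 (5.29 and 4.72) lie far up the line, Icosl, Lgals9 and Cd80 lie past 2-fold at the lower left, and Vsir lies above the line.

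Between genotypes, no kept gene of the 10 passed 2-fold at either time, which with so few genes past it overall says little about these ones. At 0 h, 8 of the 10 reached 1 FPKM in WT or the knockout, and none of the 8 was 2-fold higher or lower, where 0.88% of 11479 tested genes were higher and 0.871% lower. All 8 were slightly higher in the knockout, from 0.02 for Havcr2 to 0.36 for Lgals9, with a median of 0.18, and they stayed above 0 under each alternative that kept them. Over all tested genes 40.5% had a positive difference and the median was −0.05. Pdcd1lg2 and Il4i1 were under 1 FPKM in both libraries and were left out, with plain ratios of knockout to WT of 2.90 and 0.53 on few estimated fragments. At 24 h, 9 genes were kept, all but Icosl (plain ratio 2.45, under 1 FPKM in both), and again none reached 2-fold, where 0.832% of 11302 tested genes were higher and 0.619% lower in the knockout. Of the 9, 5 were higher in the knockout (Vsir, Il4i1, Havcr2, Lgals9 and Cd86) and 4 lower (Cd80, Pdcd1lg2, Cd274 and Cd40). The largest differences at 24 h were 0.83 for Vsir and −0.41 for Cd80, the latter at 1.45 FPKM in WT and 0.84 in the knockout.

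**Figure D4:**
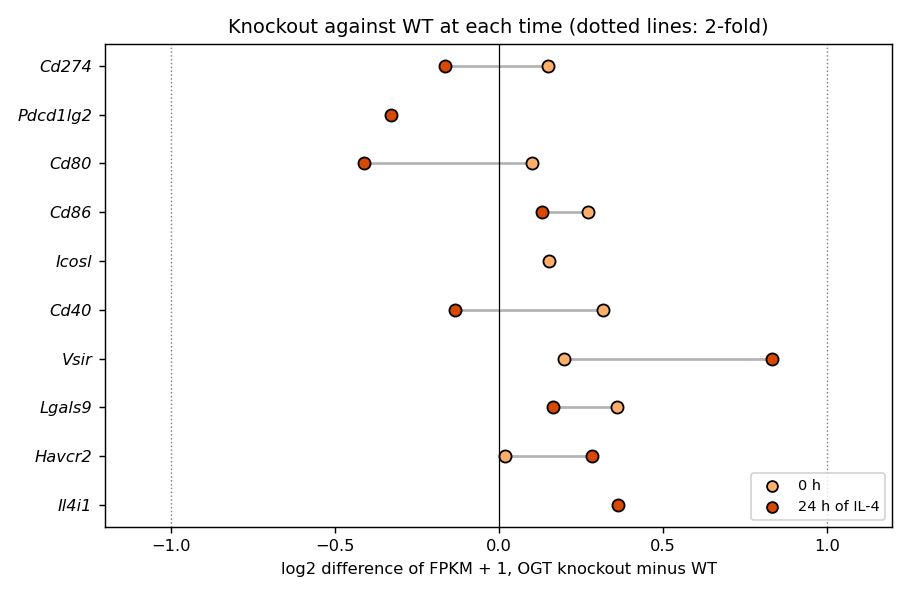
Log2 difference of FPKM + 1 between OGT knockout and WT for each of the 10 genes at 0 h (light) and after 24 h of IL-4 (dark), 1 library per group, with dotted lines at 2-fold; genes under 1 FPKM in both libraries of a comparison have no point. Every point lies inside the 2-fold lines, all 8 points at 0 h are above 0, and Vsir at 24 h (0.83) is the farthest out.

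Other genes of the same kind were also measured. Of 26 further costimulatory and inhibitory ligands and their partners, 12 reached 1 FPKM in WT, 2 of them were 2-fold lower after IL-4 and none was higher, beside 6.26% and 4.76% of all tested genes. Their median was −0.66. Fgl2, which encodes a fibrinogen-like protein with immunosuppressive activity, was at 26.5 FPKM in WT and 31.3 in knockout cells at 0 h, and at 8.84 and 9.35 after IL-4 (log2 −1.48 and −1.64). Cd200, which encodes a ligand of the inhibitory receptor CD200R, was at 3.92 and 1.12 FPKM in WT (−1.21) and at 1.95 and 0.78 in the knockout (−0.73). In the knockout 13 of the list were kept, of which Fgl2 alone was 2-fold lower (5.99% of all tested genes were), with a median of −0.21. None of the list differed by 2-fold between genotypes, with 12 genes kept at each time. Before IL-4, 0.88% of all tested genes passed 2-fold upward with OGT loss and 0.871% downward. After IL-4 these shares were 0.832% and 0.619%, so finding none among 12 genes says little about this list. Cd48, a ligand of the SLAM family, was the most abundant, at 172 to 192 FPKM in all 4 libraries. The ligand genes Vtcn1 and Cd70 were listed at 0 in each library, and Tnfsf4, Tnfsf9 and Tnfsf18, which encode ligands of OX40, 4-1BB and GITR, stayed under 1 FPKM.

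Few other enzymes that consume amino acids were measured at 1 FPKM or more beside Il4i1. Among 12 further genes of amino acid metabolism, 4 were kept in WT and 5 in the knockout, and 2 were higher by 2-fold in each, where 4.76% and 5.16% of all tested genes were. Arg1, the arginase gene, went from 0.12 to 240.4 FPKM in WT (7.75) and from 0.07 to 219 in the knockout (7.69). Gpt2, a mitochondrial alanine aminotransferase, went from 1.36 to 4.48 (1.22) and from 1.02 to 3.26 (1.07). Ido1, which encodes the tryptophan-degrading enzyme best known for restraining T cells, was listed at 0 in all 4 libraries. Nos2 and Tdo2 stayed under 0.10 FPKM. Arg2 was the 1 gene of this list past 2-fold between genotypes, at 0.86 FPKM in WT and 2.93 in knockout cells at 0 h (1.08). At that time 0.88% of all tested genes were 2-fold higher in the knockout.

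Regulators of these ligands were measured in the same libraries, and all 25 in the list were kept. In WT, 4 were at least 2-fold higher after IL-4 and 3 at least 2-fold lower, where 4.76% and 6.26% of all tested genes were. The knockout gave the same counts, beside 5.16% and 5.99%. Irf4, a factor of alternative activation, went from 1.97 to 46.0 FPKM in WT (3.98) and from 3.33 to 58.4 in the knockout (3.78). Klf4 (3.67 and 3.42), Pparg (1.73 and 1.56) and Egr2 (2.54 and 1.65), also transcription factors of alternative activation, were higher in both genotypes. Stat6 transcripts were level, at 50.2 to 52.3 FPKM in the 4 libraries. The receptor genes Il13ra1 (−2.07 in WT and −1.97 in the knockout) and Il4ra (−1.09 and −0.94) were lower after IL-4. Relb (−1.24 in WT and −0.75 in the knockout), Irf1 (−0.67 and −1.14) and Irf8 (−0.92 and −1.09) were also lower in both genotypes. Relb passed 2-fold in WT only, and Irf1 and Irf8 in the knockout only. Egr2 was the 1 regulator past 2-fold between genotypes, with 3.83 FPKM in knockout and 9.69 in WT cells before IL-4 (−1.15), and 14.1 and 61.1 after it (−2.04). Among all tested genes 0.871% were 2-fold lower in the knockout at 0 h and 0.619% at 24 h. In the 24 h libraries Pdcd1lg2 differed between genotypes by −0.33 and Il4i1 by 0.36, and a link of either to Egr2 was not tested. Cmtm6, which encodes a protein that keeps PD-L1 at the cell surface, was at 61.8 FPKM in WT and 64.3 in knockout cells at 0 h, and at 39.8 in both after IL-4.

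**Figure D5:**
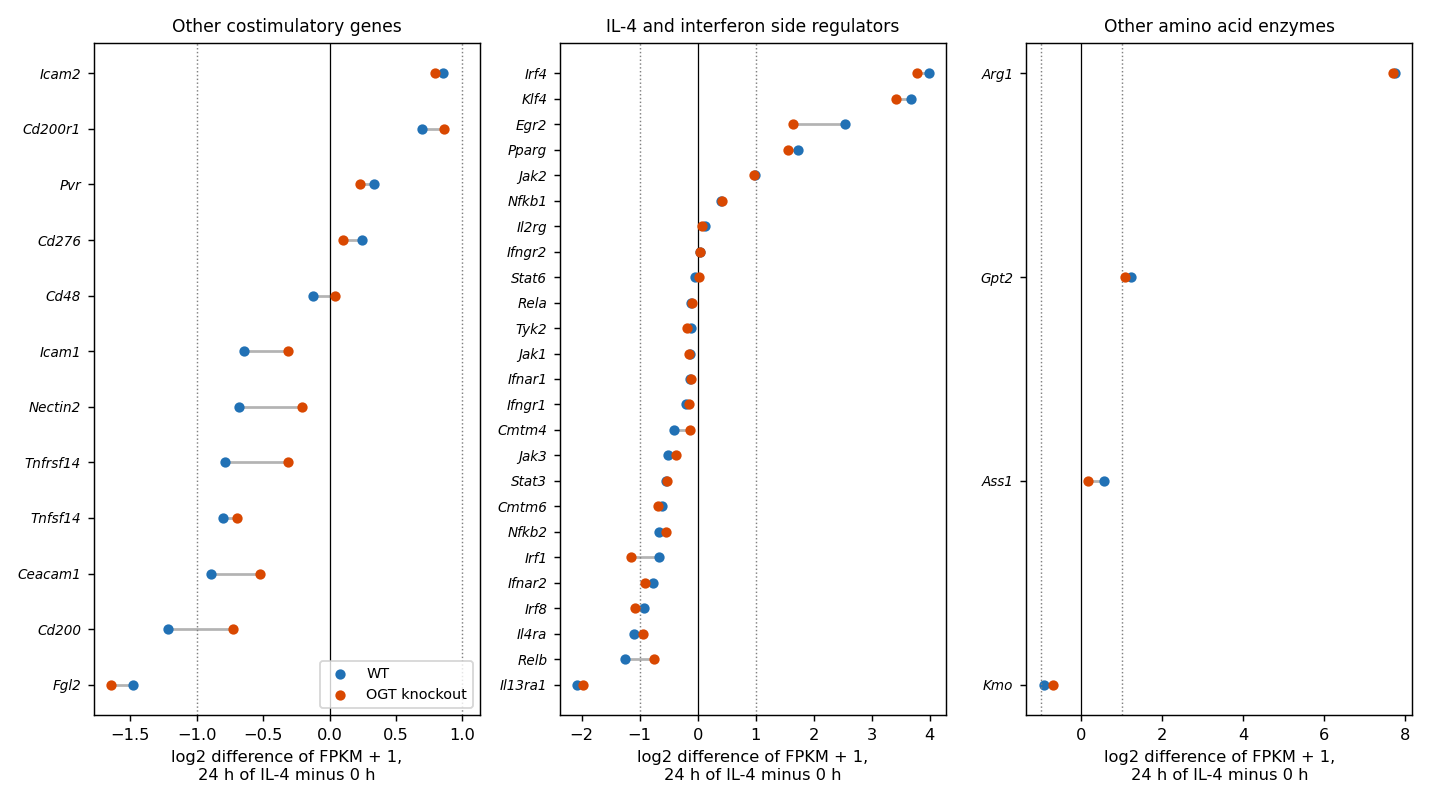
Log2 difference of FPKM + 1 between 24 h of IL-4 and 0 h in WT (blue) and OGT knockout (orange) for the kept genes of 3 lists, joined by a line for each gene, with dotted lines at 2-fold and 1 library per group. Irf4, Klf4 and Arg1 lie far to the right in both genotypes, Fgl2 and Il13ra1 lie past 2-fold to the left, and Egr2 has the widest gap between genotypes among the regulators.

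The receptors on the T cell side were nearly silent, apart from 2 genes. Of 14 such genes, 12 stayed under 1 FPKM in all 4 libraries, and Pdcd1 and Ctla4, which encode PD-1 and CTLA-4, were listed at 0. Cd28, the receptor of CD80 and CD86, was at 16.6 FPKM in WT and 16.2 in knockout cells at 0 h, and at 3.24 and 2.94 after IL-4 (log2 −2.05 and −2.12). Cd4 was at 24.6 and 18.8 FPKM at 0 h and at 2.85 and 2.06 after IL-4 (−2.73 and −2.70). In both genotypes the libraries with IL-4 were the low ones. The T cell receptor complex genes Cd3d, Cd3e, Cd3g and Trac stayed between 0 and 0.52 FPKM in the same libraries.

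Macrophage markers and markers of other cells moved with some of these differences. Macrophage markers summed to 18950 FPKM in WT and 15917 in knockout cells at 0 h, and to 6753 and 6726 after IL-4, and Lyz2 made up most of each sum. Of the 10, 5 were at least 2-fold lower after IL-4 in WT (median −1.05) and 6 in the knockout (median −1.28), and none was 2-fold higher. Among all tested genes 6.26% were lower in WT and 5.99% in the knockout (medians 0.02 and 0.03), and 4.76% and 5.16% were higher. Adgre1, which encodes F4/80, went from 1150 to 361 FPKM in WT and from 1027 to 378 in the knockout. Csf1r and Cd68 stayed within 2-fold in both genotypes. Neutrophil markers, of which 8 of 9 reached 1 FPKM, summed to 3249 FPKM in WT and 2070 in knockout cells at 0 h, and to 1022 and 668 after IL-4. Both sums were thus lower in the same libraries as Cd80, Cd86, Icosl and Lgals9. In each set 1 kept gene was higher after IL-4 in both genotypes. Mrc1 went from 182 to 341 FPKM in WT and from 174 to 282 in the knockout. Cxcr2 went from 1.00 to 1.42 and from 0.83 to 1.75. The part of these cells in the differences of the 10 genes was not tested. Dendritic cell markers summed to 7.53 and 6.51 FPKM at 0 h and 28.9 and 27.8 after IL-4. Batf3 was at 2.70 and 2.10 FPKM at 0 h, and at 27.0 and 25.2 after IL-4, when it made up nearly all of the sum. Without Batf3 the other 9 summed to 1.96 to 4.84 FPKM, and that sum was lower after IL-4 in both genotypes. Of these 9, Ccr7 and Kmo were above 1 FPKM at 0 h and under it after IL-4, in both genotypes. The other 7 stayed under 1 FPKM in all 4 libraries, among them Flt3, Xcr1, Clec9a and Zbtb46. Zbtb46 had 0.07 FPKM before and 0.37 after IL-4 in WT and 0.05 and 0.48 in the knockout. B cell markers other than Cd79b summed to at most 0.28 FPKM. Cd79b itself was at 13.7 and 9.12 FPKM at 0 h and at 4.74 and 2.93 after IL-4, in WT and knockout, and its part was not tested. Mast cell and basophil markers summed to 7.53 and 4.80 FPKM in WT and to 1.84 and 0.95 in the knockout. Between genotypes, the markers past 2-fold lower in the knockout were Retnlg at 0 h (−1.08), Itgam at 24 h (−1.07) and Prss34 at both times (−1.72 and −1.63). Among all tested genes 0.871% were lower at 0 h and 0.619% at 24 h. No marker was past 2-fold higher, where 0.88% and 0.832% of all tested genes were.

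Genes with the most similar profile were sought for the 6 genes past 2-fold in at least 1 comparison. The measure was the Euclidean distance over the 4 libraries between log2 values of FPKM + 1, each gene centred on its own mean, among protein-coding genes that reached 5 FPKM (6661 or 6662 of them). With 4 libraries of which 2 had IL-4, any gene with a like response lies close. Nearest to Pdcd1lg2 were Tmem26 (distance 0.40), Eno1b (0.40) and Gm8113 (0.61), and nearest to Il4i1 were Eno1b (0.51), the lectin gene Mgl2 (0.52) and Tmem26 (0.69). For Cd80 they were Cpne1 (0.060), Ypel3 (0.11) and Uba7 (0.15), which encodes the activating enzyme of the ubiquitin-like protein ISG15. For Cd86 they were Lrp5 (0.047), Irf8 (0.060) and Rnf114 (0.062). Icosl lay nearest to Retreg1 (0.073), Slc36a1 (0.099) and Tifa (0.11). Lgals9 lay nearest to Sp100 (0.049), a nuclear body gene, H2-T24 (0.066), a class I-like gene, and Nt5dc2 (0.097).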

How the data were processed

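RNA-seq was run on BMDMs of 2 genotypes at 2 times, with 1 library per group, and per the labels' protocols 1 µg of total RNA went into each library. The authors deposited 1 table of FPKM values by Ensembl gene, which names no unit. It was read as FPKM because its columns sum to between 338704 and 353093, which TPM would not. STAR, StringTie and GRCm38 are named in the submitters' processing notes, with neither versions nor an annotation release. Symbols for 52403 of 52550 genes and all positions, counted from 1, came from GENCODE M21 (GRCm38). Genes sharing a symbol were summed.

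Depth was estimated from genes with 1 exon and 1 transcript over 800 bases long. The most common product of FPKM and length, sought between 0.03 and 0.07 FPKM × kb, was taken as 1 fragment. Fragment estimates use a gene's longest transcript and are not counts. A 0 in the table can be a failed estimate.

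Differences used a pseudocount of 1 FPKM, and the steps were checked on simulated data. That check placed changes larger than 2-fold in genes at 5 FPKM or more. It does not cover changes near 2-fold, genes at lower levels or variation between cultures. One regulator gene of the lists and one motif are not reported here. The genes and lists were chosen with earlier results of these data known. Named genes are the 10 genes, Ogt, genes with overlapping exons and the 3 nearest profiles. List genes past 2-fold are also named (at most 4 per list and comparison). Cell markers past 2-fold are named in full only for the comparisons between genotypes. Others (Stat6, Cmtm6, Cd48, Ido1, Batf3, Cd79b, Mrc1, Cxcr2, Ccr7, Kmo and the genes given as low or at 0) were named after their values were seen. Alternatives were a pseudocount of 0.1 or 5, no filter or one at 5 FPKM, 2 rescalings and single identifiers. Python 3.11.15, pandas 2.3.3, numpy 2.4.6 and matplotlib 3.10.9 were used.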

Additional observations from a re-analysis of the deposited data

Results flagged for a closer look

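Some genes had differences of opposite sign in the 2 genotypes or at the 2 times, and with 1 library per group none of these was tested. Cd274 was higher after IL-4 in WT (log2 0.14) and lower in the knockout (−0.18). It was also higher in the knockout at 0 h (0.15) and lower at 24 h (−0.16), which restates the same 4 values. Cd80 was 0.10 higher in the knockout at 0 h and lower at 24 h (−0.41). Cd40 was 0.32 higher in the knockout at 0 h and lower at 24 h (−0.13). All are within 2-fold.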

How the results depend on the processing

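The 7 alternatives gave 70 member counts, of which 6 moved by more than 1.5 times. In WT the 3 genes lower after IL-4 became 1 (Lgals9) with a pseudocount of 5 and 1 with a filter at 5 FPKM, which Cd80 and Icosl do not pass. In the knockout the 4 became 1 (Lgals9) and 2 (Lgals9 and Cd86). With a pseudocount of 0.1, the knockout response minus the WT response passed 2-fold higher for 1 gene, Il4i1 (1.09), and lower for 1 gene, Pdcd1lg2 (−1.32), both of which rest on few estimated fragments at 0 h. Of 310 values of single genes under alternatives, 302 stayed on their side of 2-fold and none past 2-fold changed sign. Vsir came to −1.01 in WT when libraries were rescaled to the same total. The sign changed in 3 values, all within 2-fold and belonging to Cd40 in the knockout (from −0.03 to 0.02) and the response difference of Icosl (from −0.02 to 0.71). Counts over all genes depended most on the pseudocount: at 5 they were 253 higher and 304 lower in WT (main 556 and 732), 272 and 320 in the knockout (597 and 693), 23 and 20 between genotypes at 0 h (101 and 100), and 23 and 16 at 24 h (94 and 70). At 0.1 they were 845 and 1126, 963 and 1068, 202 and 236, and 209 and 179. For the response difference they were 36 and 36 at 5 and 372 and 290 at 0.1 (152 and 139). With a filter at 5 FPKM the counts between genotypes were 52 and 54 at 0 h and 55 and 38 at 24 h, and 77 and 64 for the response difference, from fewer genes tested. No paired analysis was possible because each group holds 1 library, and for the same reason no library could be left out.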

Other observations

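The summed level of the 10 genes was nearly the same with and without IL-4, at 219.7 and 227.6 FPKM in WT and 262.6 and 260.8 in the knockout, although the genes that made it up changed. At 0 h most of it was Lgals9, Vsir and Cd274, and after IL-4 most of it was Il4i1, Cd274, Pdcd1lg2 and Vsir. Cd28 and Cd4, textbook markers of T cells, were above 16 FPKM at 0 h in both genotypes while the T cell receptor complex genes were near 0.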
